A study of Mus musculus with 4 samples.

Results

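Integrins and cadherins are the main surface receptors by which cells hold on to matrix and to each other. An integrin is a pair of 1 alpha and 1 beta chain that binds laminins, collagens, fibronectin or a receptor on another cell outside, and talin, kindlin and actin inside. A cadherin binds a cadherin on the neighbouring cell in the presence of calcium, and its tail holds catenins that reach the actin cortex. In the seminiferous epithelium such contacts join Sertoli cells, the somatic supporting cells, to the basement membrane, to each other and to germ cells, while the interstitium has its own set on Leydig, vascular and immune cells.

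The genes described here are all those in the deposited table whose symbol is Itga followed by letters or digits, Itgb followed by 1 digit, or Cdh followed by digits. This gave 43 of 25265 genes, namely 18 integrin alpha, 7 integrin beta and 18 cadherin genes. The rule reads the symbol alone. Itgb6, Cdh7, Cdh8, Cdh10, Cdh16 and Cdh19 have no row in the table and are not analysed here. The name classical cadherin covers 14 of the 18 cadherin genes, of types I and II; Cdh13, Cdh17, Cdh23 and Cdh26 belong to other branches of the superfamily.

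RNA of adult testis (C57BL/6 mice, postnatal day 56) was sequenced in 4 libraries, 2 carrying the label control and 2 the label Ythdf2-vKO (vKO below). The series title describes the mutation as germ cell-specific, and the question was how the testis transcriptome differs with that genotype. YTHDF2 reads N6-methyladenosine (m6A) on transcripts in the cytoplasm and brings them to the deadenylation machinery. The labels give neither the promoter that restricts the mutation to germ cells, nor the alleles of the control mice, nor whether each library is a separate animal, so p-values measure the spread between these libraries, which may be technical.

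The targeted gene did not check the labels. Ythdf2 had 1193 and 1604 counts in the control libraries versus 1774 and 1807 in the vKO-labelled libraries, a log2 fold change of 0.35 (SE 0.13) with an adjusted p of 0.238. Every direction below is therefore that of the vKO-labelled libraries relative to those labelled control. Total counts ran from 24862518 to 29561182 per library. Levels are CPM, counts scaled to the effective size of each library, and CPM per kilobase of exon where genes are compared with each other. Genes are named as called where the adjusted p of edgeR's quasi-likelihood test, over 21132 genes, was under 0.05.

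No integrin or cadherin gene was called. Of the 43 genes, 39 had enough counts to be tested, and 0 of these passed, against 0.393% of all genes tested. The lowest adjusted p was 0.164, for Itga6. DESeq2 also called 0, with an adjusted p for 25 of the 43 genes, against 1.32% of the genes to which it gave one. The authors' deposited table gives an adjusted p for 25 of these genes, of which 0 are under 0.05. Its values for these genes match the DESeq2 values here, from the same counts, so it is not a separate result. At an unadjusted p under 0.05 edgeR gave 9 genes and DESeq2 7. Of the 9, 7 were higher in the vKO-labelled libraries, which is 17.9% of the 39 against 7.65% of all genes tested, and 2 were lower, which is 5.13% against 6.47%. Both vKO-labelled libraries lay above both controls for 14 genes (35.9%, against 22.7% of all genes) and below both for 5 (12.8%, against 22.6%).

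Fold changes leaned upward among alpha chains and were centred near 0 in the other families. The median log2 fold change was 0.13 over the 39 genes, with 24 of 39 above 0, beside 0.0027 over all genes tested. It was 0.38 for the 17 alpha genes tested (12 above 0, and a median of 0.23 without vKO replicate 1), 0.03 for the 7 beta genes (4 above 0) and 0.10 for the 15 cadherin genes (8 above 0). Over all 39 the median was 0.20 with library totals in place of scaling, where that of all genes was 0.07, and 0.02 with an offset for GC content. With that offset the alpha median was 0.34, with 12 of the 17 above 0. The beta median was -0.05 without control replicate 1 and 0.68 without control replicate 2. For cadherins the GC offset gave a median of -0.02, and leaving out vKO replicate 2 gave -0.09.

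**Figure D1:**
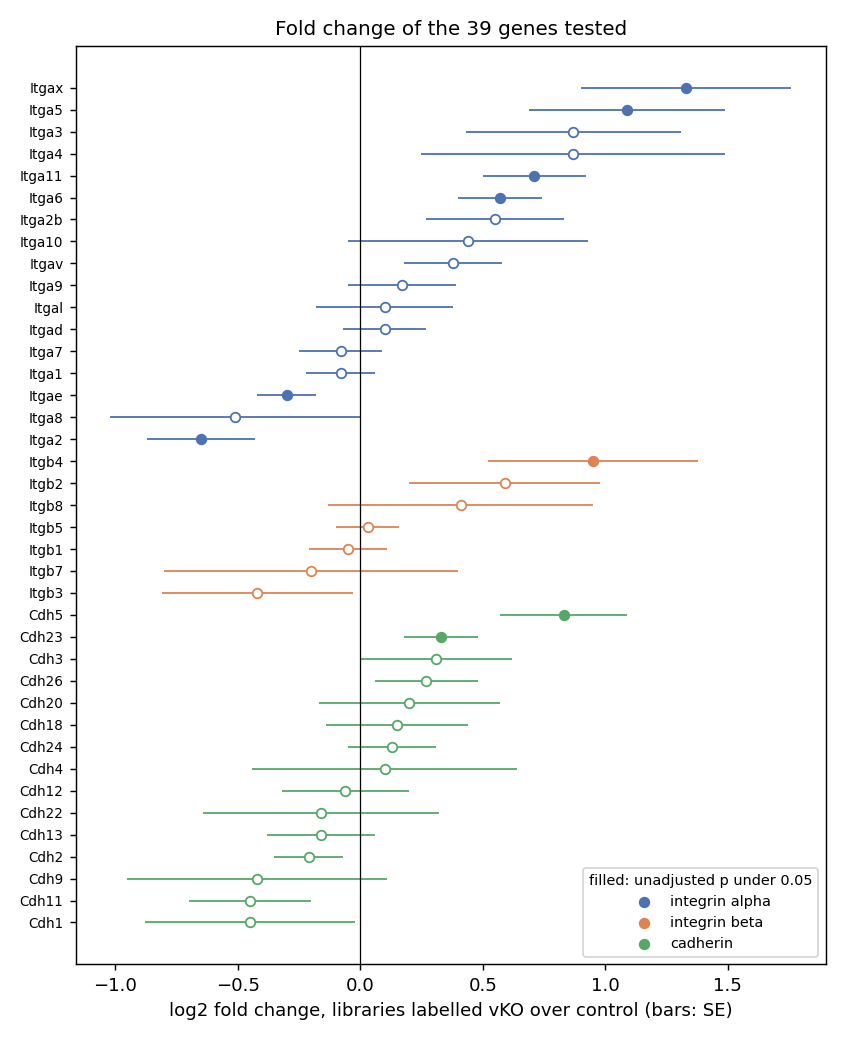
Fitted log2 fold change of each of the 39 genes tested (x axis, vKO-labelled libraries over control) with its standard error as a bar, grouped and coloured by family; filled points have an unadjusted p under 0.05. Most alpha chains lie above 0, from -0.65 for Itga2 to 1.33 for Itgax, and no gene passed the adjusted threshold.

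Per length, 4 genes stood above the others, between 9.04 and 14.2 CPM per kb over the 4 libraries, and the next was Cdh23 at 4.07. Among alpha chains Itgae stood first, at 15.6 ± 0.308 CPM per kb in control and 12.7 ± 0.0103 in the vKO-labelled libraries (SD, n = 2 each). Itgad followed at 3.06 ± 0.142 and 3.28 ± 0.443, and Itga1 at 2.90 ± 0.187 and 2.74 ± 0.264, in the same order of groups. That order is of the means over the 4 libraries: Itga11 was at 2.05 ± 0.679 in control and at 3.33 ± 0.0799 in the vKO-labelled libraries, where its mean exceeded those of Itgad and Itga1, and Itgad and Itga1 overlapped in control. Among beta chains Itgb5, a partner of the alpha v chain, reached 12.7 ± 0.0759 and 13 ± 0.477, and Itgb1, the partner of most matrix-binding alpha chains, 9.20 ± 1.93 and 8.88 ± 1. The next beta chain, Itgb2 of leukocytes, was at 0.491 ± 0.140 and 0.745 ± 0.314. Among cadherins Cdh2, the N-cadherin of Sertoli and germ cell contacts, led at 11.6 ± 1.92 and 10.1 ± 0.535, ahead of Cdh23 at 3.61 ± 0.752 and 4.54 ± 0.00948 and Cdh24 at 3.14 ± 0.488 and 3.43 ± 0.0792. Cdh23 and Cdh24 overlapped in control.

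**Figure D2:**
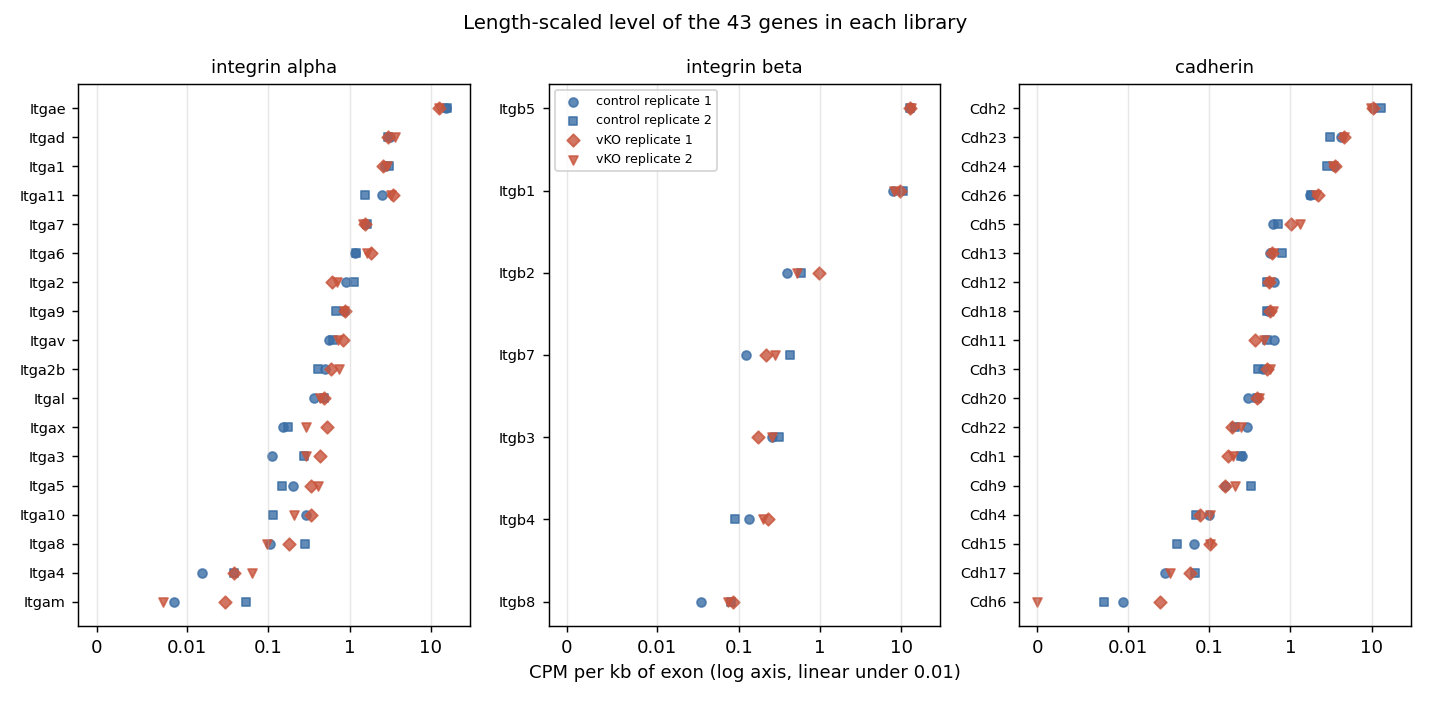
Level of the 43 genes in CPM per kb of exon (x axis, log scale above 0.01), 1 panel per family, with 1 point per library. Itgae, Itgb5, Itgb1 and Cdh2 lie near 10, and Itgam and Cdh6 lie at the lower end.

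Among the genes that lead each family per length, Itgb5, Itgb1, Cdh2, Itga1 and Cdh24 had overlapping groups, while Itgae and Cdh23, described further on, did not overlap. Itgb5 had 45.0 and 45.4 CPM in control versus 44.9 and 47.3 in the vKO-labelled libraries, with overlapping groups (log2 fold change 0.03, SE 0.13, adjusted p 0.959). Itgb1 had 32.0 and 43.1 CPM in control versus 39.1 and 33.4 in the vKO-labelled libraries. Its control libraries lay on either side of the others (log2 fold change -0.05, SE 0.16, adjusted p 0.931). Cdh2 had 82.7 and 105 CPM in control versus 84.2 and 78.1 in the vKO-labelled libraries, and control replicate 2 alone was high (log2 fold change -0.21, SE 0.14, adjusted p 0.559). Itga1, a collagen receptor chain, had 51.4 and 56.3 CPM against 47.4 and 54.4, a log2 fold change of -0.08 (SE 0.14). Pelo, a gene of ribosome rescue, lies within the Itga1 gene on the same strand, and had 144 and 129 counts in control versus 245 and 214 in the vKO-labelled libraries. Cdh24 had 12.1 and 9.74 CPM against 12.2 and 11.8, a log2 fold change of 0.13 (SE 0.18) that was -0.09 with the GC offset.

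Laminin is the main ligand at the basement membrane of the tubule, and 3 alpha genes encode receptors for it. Itga6, whose protein pairs with beta 1 or beta 4 and marks the surface of spermatogonial stem cells, lies on chromosome 2 from 71745616 to 71858416 (GRCm38). It had 10.4 and 10.7 CPM in control versus 16.6 and 14.7 in the vKO-labelled libraries, so the groups did not overlap. The log2 fold change was 0.57 (SE 0.17, unadjusted p 0.00496, adjusted p 0.164), and it ran from 0.48 to 0.65 when each library was left out in turn. The Itga6 transcript shares 326 of 4310 nt at 100% identity with Gm29397 on the same strand. Gm29397 has no row, and reads shared with it may not be in the Itga6 count. Itga3 had 0.642 and 1.57 CPM in control versus 2.47 and 1.67 in the vKO-labelled libraries, where control replicate 1 stood low (log2 fold change 0.87, SE 0.44). Without control replicate 1 its log2 fold change was 0.39 and without control replicate 2 it was 1.68, at an adjusted p of 0.0415. Itga7, the laminin receptor chain of muscle, had 12.5 and 13.3 CPM against 12.5 and 11.9 (log2 fold change -0.08, SE 0.17), and its annotated exons overlap Mettl7b on the opposite strand.

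The m6A mark that YTHDF2 reads sits in a short consensus whose most used form contains GGACT, so this pentamer was counted on the sense strand of the longest annotated transcript of each gene. It occurred in all 43 genes, tested or not, against 91.8% of 15863 tested protein-coding genes. Presence depends on transcript length, which ran from 2683 nt in Itgb7 to 11096 nt in Cdh23 and was not matched between the sets. There were 282 matches, with a median of 1.19 per kb over the 43 genes against 1.04 over those protein-coding genes. By the annotation of these transcripts, 183 of the 282 lay in coding sequence, 76 in 3′ UTRs and 19 in 5′ UTRs. The other 4 lay in a transcript with no coding sequence. Other transcripts of a gene may give another split. In the Itga5 transcript used, every match from position 1591 of 4415 on counted as 3′ UTR. Values ran from 0.524 per kb in Itgb1 to 2.69 per kb in Itgb2, and across the 39 genes tested the Spearman correlation of this density with the log2 fold change was 0.22, a description over genes that share libraries. Itga6, the gene with the lowest adjusted p, held 3 such pentamers in 4310 nt (0.696 per kb), all in coding sequence. They are shown with their flanks to place them in the transcript, with the pentamer in capitals and positions counted from 1 at the transcript's 5′ end. No methylation was measured, and a match is not a methylated site.
Itga6 position 755: ctttcactaaGGACTttcattacat
Itga6 position 787: ggagccccagGGACTtacaactgga
Itga6 position 947: gcttttcactGGACTcagggaaggg

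The collagen receptors went both ways. Itga11, the collagen receptor chain of fibroblast-like cells (chromosome 9, 62677826 to 62783982), had 13 and 8.04 CPM in control versus 17.4 and 16.8 in the vKO-labelled libraries. The groups did not overlap, but the control libraries lay far apart, and the log2 fold change was 0.71 (SE 0.21, unadjusted p 0.00559, adjusted p 0.173). It was 1.08 without control replicate 1, at an adjusted p of 7.71e-05, and 0.40 without control replicate 2. Itga2, a collagen receptor chain of platelets and epithelia (chromosome 13, 114833081 to 114932100), had 6.5 and 8.07 CPM in control versus 4.30 and 5 in the vKO-labelled libraries. Its log2 fold change of -0.65 (SE 0.22, unadjusted p 0.0119, adjusted p 0.22) was the lowest of the 39 genes, and without control replicate 1 it was -0.80 at an adjusted p of 0.0391. Itga10, the chain of cartilage, had 1.5 and 0.6 CPM against 1.72 and 1.07, with overlapping groups.

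Beside the lower values of Itga2, the list of 10 rete testis and duct epithelium genes summed to 23.9 and 19.2 CPM in control versus 15.2 and 14.8 in the vKO-labelled libraries. Of that list 6 genes were in the table and 3 were tested, with 0 of 3 above 0, 0 called by edgeR or DESeq2, and 1 with an unadjusted p under 0.05 by each. Pax8, Lcn5, Lcn8 and Lcn9 had no row. The part of such cells in the Itga2 value was not tested. In bulk tissue fewer cells of a type and less RNA per cell cannot be told apart.

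Receptors for fibronectin and vitronectin, which bind the tripeptide RGD, were mostly higher in value. Itga5, the fibronectin receptor chain (chromosome 15, 103344286 to 103366763), had 0.984 and 0.734 CPM in control versus 1.64 and 2 in the vKO-labelled libraries, on 23 and 22 against 44 and 54 counts. The groups did not overlap, and the log2 fold change was 1.09 (SE 0.40, unadjusted p 0.0168, adjusted p 0.242). Itgav, which pairs with Itgb5, had 5.95 and 6.80 CPM against 8.97 and 7.71 (log2 fold change 0.38, SE 0.20, adjusted p 0.429). Itga2b, a chain of platelets and megakaryocytes, had 2.74 and 2.23 CPM against 3.21 and 4.04 (log2 fold change 0.55, SE 0.28, adjusted p 0.414). Of the 8 erythrocyte and platelet genes listed, 5 were tested and 5 lay above 0, with 0 calls and 3 unadjusted p under 0.05 by edgeR and 0 and 2 by DESeq2. The list summed to 27.6 and 33.3 CPM in control versus 43.8 and 39.9 in the vKO-labelled libraries, and its part in the Itga2b value was not tested. Of its platelet genes Pf4 had 0.770 and 0.734 CPM against 1.57 and 0.667, and Ppbp and Gp9 had no row. Itga8 alone in this group lay below 0, with 0.770 and 2.1 CPM in control versus 1.34 and 0.704 in the vKO-labelled libraries, with overlapping groups.

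Itgae, the most abundant alpha chain per length, was lower in both vKO-labelled libraries. The gene lies on chromosome 11 from 73090583 to 73147446 and encodes the alpha E chain of intraepithelial T cells, which pairs with beta 7 to bind E-cadherin. It had 70.6 and 72.6 CPM in control versus 58.3 and 58.3 in the vKO-labelled libraries, with a log2 fold change of -0.30 (SE 0.12, unadjusted p 0.0338, adjusted p 0.307). It ran from -0.32 to -0.28 when each library was left out. The other parts of that contact were scarce: Itgb7 was at 0.263 CPM per kb and Cdh1, the E-cadherin gene, at 0.217 over the 4 libraries, against 14.2 for Itgae. The T cell genes Cd3e, Cd3d and Cd3g together summed to 1.80 and 4 CPM in control versus 2.58 and 3.30 in the vKO-labelled libraries.

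A germ cell gene sits inside Itgae. Haspin, which encodes a kinase of histone H3 and is strongly transcribed in male germ cells, lies within intron 26 of Itgae on the opposite strand, from 73135485 to 73138294, at 255 CPM per kb. Its counts were 19634 and 18519 in control versus 19425 and 18409 in the vKO-labelled libraries (log2 fold change -0.05, adjusted p 0.924). Its start lies 160 bases from exon 27 of Itgae, and its promoter is known to act in both directions in testis and to give an RNA derived from Itgae. The window around the Haspin start from RefSeq (GRCm38.p6, chr11:73138245-73138544, minus strand, 250 bases before to 50 after the start in Haspin's direction) is shown because it holds part of both genes. Capitals mark the 57 bases of Itgae exon 27 (73138455 to 73138511), which is read on the other strand.
Haspin: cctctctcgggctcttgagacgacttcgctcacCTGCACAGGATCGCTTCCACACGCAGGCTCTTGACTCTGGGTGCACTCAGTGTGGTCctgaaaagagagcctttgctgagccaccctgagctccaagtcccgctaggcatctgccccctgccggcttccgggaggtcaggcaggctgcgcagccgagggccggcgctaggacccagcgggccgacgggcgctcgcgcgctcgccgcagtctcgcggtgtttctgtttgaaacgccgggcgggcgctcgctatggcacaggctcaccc

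The counts are per gene, so which exons of Itgae the reads came from was not tested. Annotated exons of the pair do not overlap. The libraries were directional, but the strand setting of the counting is not given in the sources used here.

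The other leukocyte alpha chains are partners of beta 2. Itgax, the CD11c chain of dendritic cells and some macrophages (chromosome 7, 128129547 to 128150657), had 0.727 and 0.834 CPM in control versus 2.54 and 1.41 in the vKO-labelled libraries, on 17 and 25 against 68 and 38 counts. The groups did not overlap, and the log2 fold change of 1.33 (SE 0.43, unadjusted p 0.00815, adjusted p 0.194) was the highest of the 39. It was 0.84 without replicate 1 of the vKO-labelled libraries, which held the highest value. Itgad, a chain described on tissue macrophages, had 14.2 and 13.3 CPM against 13.4 and 16.2, with overlapping groups (log2 fold change 0.10, SE 0.17). Exons of 4931431B13Rik overlap Itgad on the opposite strand, and that gene had 313 and 490 counts in control versus 345 and 416 in the vKO-labelled libraries, against 333 and 400 and 358 and 437 for Itgad, and Gm17831 shares 225 nt with it on the same strand, so the Itgad count is uncertain. Itgal had 2.40 and 3.17 CPM against 3.14 and 2.85. Itgam, the CD11b chain of macrophages and granulocytes, had 1 and 8 counts in control versus 4 and 1 in the vKO-labelled libraries, and was not tested. Exons of Gm49368, on the same strand, overlap those of Itgam, and its transcript is 99.9% identical over 3453 of 4682 nt. Gm49368 was not analysed here, and reads shared with it may not be in the Itgam count, so the low count does not show a low level.

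The macrophage genes overlapped between the groups. The 8 listed genes summed to 58.7 and 97.1 CPM in control versus 88.8 and 73.5 in the vKO-labelled libraries, with 6 of 8 above 0, and edgeR and DESeq2 gave 0 calls and 0 unadjusted p under 0.05. Their part in the Itgax and Itgb2 values was not tested. Itgb2 itself had 1.20 and 1.80 CPM against 2.95 and 1.59, with overlapping groups (log2 fold change 0.59, SE 0.39, adjusted p 0.545). Itga4, a receptor chain for VCAM1 and fibronectin on leukocytes, had 0.214 and 0.534 CPM against 0.523 and 0.890 (log2 fold change 0.87, SE 0.62). Itga9, its nearest relative, had 6.63 and 5.20 CPM against 6.76 and 6.49 (log2 fold change 0.17, SE 0.22). Exons of Itga4 overlap those of Cerkl on the opposite strand, which had 31 and 48 counts against 22 and 24.

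Promoter windows are shown for the genes at the ends of the fold range, Itgax and Itga2. RefSeq windows were found for 27 of the 43 genes (28 windows). They were searched on both strands for the GC box GGGCGG and the CCAAT box CCAAT, counted separately and free to overlap. The GC box was in the windows of 12 of the 27 genes and in 35.7% of 32851 promoter windows of the same length, and the CCAAT box in those of 8 genes and in 37.4% of all. The Itgax window (GRCm38.p6, chr7:128129300-128129599, plus strand) holds 1 CCAAT box, read on the other strand, and the Itga2 window (chr13:114932051-114932350, minus strand) 1 GC box, in capitals. A match is a description of the letters and not a bound site.
Itgax: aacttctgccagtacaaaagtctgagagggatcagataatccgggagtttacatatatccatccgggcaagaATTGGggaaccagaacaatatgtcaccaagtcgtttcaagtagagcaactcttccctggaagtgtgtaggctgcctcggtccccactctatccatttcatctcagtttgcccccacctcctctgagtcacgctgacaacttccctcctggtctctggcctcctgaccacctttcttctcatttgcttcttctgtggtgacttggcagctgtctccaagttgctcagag
Itga2: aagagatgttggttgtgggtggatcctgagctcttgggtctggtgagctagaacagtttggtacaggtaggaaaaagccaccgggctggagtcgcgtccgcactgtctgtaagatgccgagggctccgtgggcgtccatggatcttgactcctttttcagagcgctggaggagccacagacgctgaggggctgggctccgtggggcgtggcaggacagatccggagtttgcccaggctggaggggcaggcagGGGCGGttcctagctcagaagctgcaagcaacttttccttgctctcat

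Among beta chains Itgb4 had the only unadjusted p under 0.05. It encodes the hemidesmosome chain that pairs with alpha 6 (chromosome 11, 115974709 to 116008412). It had 22 and 19 counts in control versus 43 and 38 in the vKO-labelled libraries, or 0.941 and 0.634 CPM against 1.61 and 1.41. The groups did not overlap, and the log2 fold change was 0.95 (SE 0.43, unadjusted p 0.0447, adjusted p 0.338). DESeq2 gave it an unadjusted p of 0.109. Exons of B230344G16Rik overlap Itgb4 on the opposite strand, and that gene had 4 and 4 counts in control versus 5 and 5 in the vKO-labelled libraries. Itgb3 had 1.5 and 1.87 CPM against 1.01 and 1.52. Itgb7 had 0.342 and 1.20 CPM in control around 0.598 and 0.778, and Itgb8 had 0.385 and 0.901 CPM in control versus 0.934 and 0.815 in the vKO-labelled libraries. In both of these genes control replicate 1 was the lowest library.

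Of the classical cadherins, Cdh5 stood out by its unadjusted p. Cdh5 encodes the VE-cadherin of endothelial junctions (chromosome 8, 104101625 to 104144511). It had 2.57 and 2.97 CPM in control versus 4.33 and 5.52 in the vKO-labelled libraries. The groups did not overlap, and the log2 fold change was 0.83 (SE 0.26, unadjusted p 0.00705, adjusted p 0.186), between 0.64 and 0.99 when each library was left out. The 8 other endothelial genes listed summed to 17.9 and 23.8 CPM in control versus 26.4 and 24.3 in the vKO-labelled libraries, with 5 of 8 above 0. Neither edgeR nor DESeq2 called any, with 1 unadjusted p under 0.05 by each. Flt1, a VEGF receptor and the gene with that p, had 5.39 and 5.57 CPM against 9.56 and 8.27 (log2 fold change 0.70, SE 0.20, adjusted p 0.158), and Tek, the angiopoietin receptor, 1.03 and 1.40 against 2.13 and 1.93. Both lay above control without overlap, as Cdh5 did, and so did Kdr, at 2.70 and 3.44 CPM against 3.55 and 4.41. Egfl7 lay below control without overlap, at 3.25 and 2.87 CPM against 2.28 and 2.26. Of the 8 genes 37.5% thus lay above and 12.5% below, against 22.7% and 22.6% of all genes tested. Pecam1 had 0.856 and 0.567 CPM against 0.971 and 0.259, and Cd34 3.59 and 8.61 against 6.76 and 5.45, both with overlapping groups. The part of these endothelial genes in the Cdh5 value was not tested.

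The other classical cadherins gave no unadjusted p under 0.05. Cdh1 had 1.16 and 1.13 CPM in control versus 0.784 and 0.890 in the vKO-labelled libraries, without overlap but on at most 34 counts (log2 fold change -0.45, SE 0.43). Cdh3, the P-cadherin gene, had 2.05 and 1.77 CPM against 2.24 and 2.48 (log2 fold change 0.31, SE 0.31). Cdh11, a cadherin of mesenchymal cells, had 5.56 and 4.64 CPM against 3.25 and 4.19 (log2 fold change -0.45, SE 0.25, adjusted p 0.45). Its longest transcript is at least 95% identical to transcripts of 6 other genes in the table over up to 990 nt, so its count is uncertain. Cdh12, Cdh18 and Cdh20 had log2 fold changes of -0.06, 0.15 and 0.20. Cdh4, Cdh9 and Cdh22, all at 1.17 CPM or less in every library, gave 0.10, -0.42 and -0.16. Cdh15, the cadherin of muscle, had 5 and 4 counts against 9 and 9 and was not tested, and Cdh6 had 2 and 2 against 6 and 0, where a count of 0 allows up to 3 counts.

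Cadherins of other branches were led by Cdh23, the tip-link cadherin of hair cells (chromosome 10, 60302748 to 60696490). It had 70.1 and 52.1 CPM in control versus 77.1 and 76.8 in the vKO-labelled libraries. The groups did not overlap, with a log2 fold change of 0.33 (SE 0.15, unadjusted p 0.0436, adjusted p 0.335). Without control replicate 1 it was 0.56, at an adjusted p of 0.00387, and without control replicate 2 it was 0.14. With the GC offset it was 0.17, at an unadjusted p of 0.22. Cdh26 had 5.22 and 5.34 CPM against 6.61 and 6.15 (log2 fold change 0.27, SE 0.21). Cdh13, the T-cadherin gene, whose protein has no transmembrane tail, had 6.25 and 8.81 CPM in control around 6.61 and 6.89. Cdh17 had 3 and 9 counts against 7 and 4 and was not tested.

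**Figure D3:**
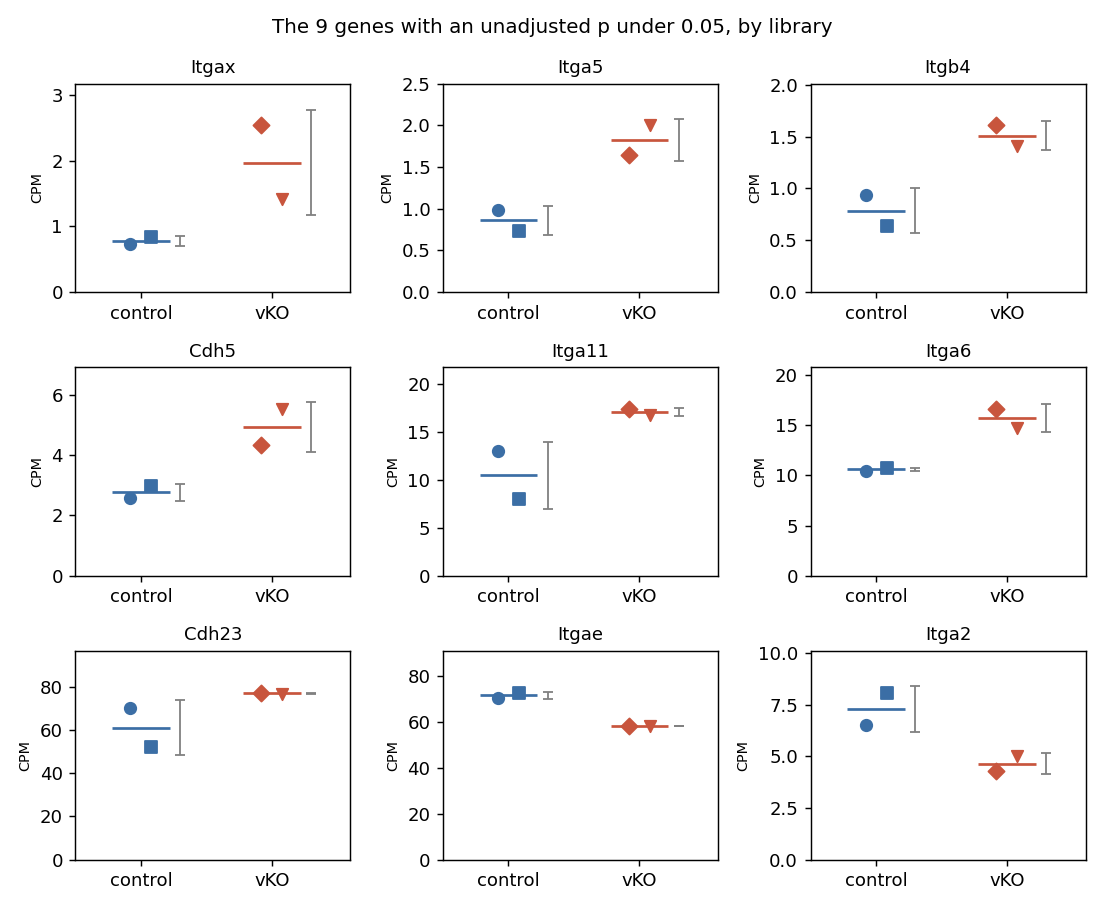
CPM by library (points) of the 9 genes with an unadjusted p under 0.05, with the group mean (line) and SD over 2 libraries (grey bar); each y axis starts at 0. Itgae and Itga2 lie lower in the vKO-labelled libraries and the other 7 higher, and the control libraries of Itga11 and Cdh23 lie far apart.

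The control libraries differed more from each other than the vKO-labelled libraries did. Over the 39 genes the median absolute log2 ratio between control libraries was 0.29, against 0.19 between the vKO-labelled libraries, and over all genes tested it was 0.21 and 0.17. In 20 of the 39 genes the gap between the control libraries exceeded the difference between the group means. This was not counted over all genes, so it cannot be read as a trait of these genes. Left out in turn, control replicate 1 gave calls for Cdh23, Itga2 and Itga11, control replicate 2 a call for Itga3, and neither vKO-labelled library gave any; calls over all genes then numbered 1540, 1110, 18 and 24, against 83 with 4 libraries. A lone library of a group is assumed to vary like the others in such fits.

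The fold changes were set beside the GC content of the transcripts. Across the 39 genes log2 fold change and GC content had a Spearman correlation of 0.31, or 0.10 with the GC offset. Over all genes tested it was 0.26 and -0.02. These genes had a median GC content of 51.6%, against 48.9% for all genes. With the offset 6 genes were higher and 2 lower at an unadjusted p under 0.05 in edgeR's test. The share of all genes was not counted with the offset, so these counts have no background here. Cdh23 and Itgb4 no longer passed that threshold (unadjusted p 0.22 and 0.101), while Itgav now did (0.0386). Itga6 kept its log2 fold change of 0.57, while Itgb4 went from 0.95 to 0.74 and Itga11 from 0.71 to 0.57.

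**Figure D4:**
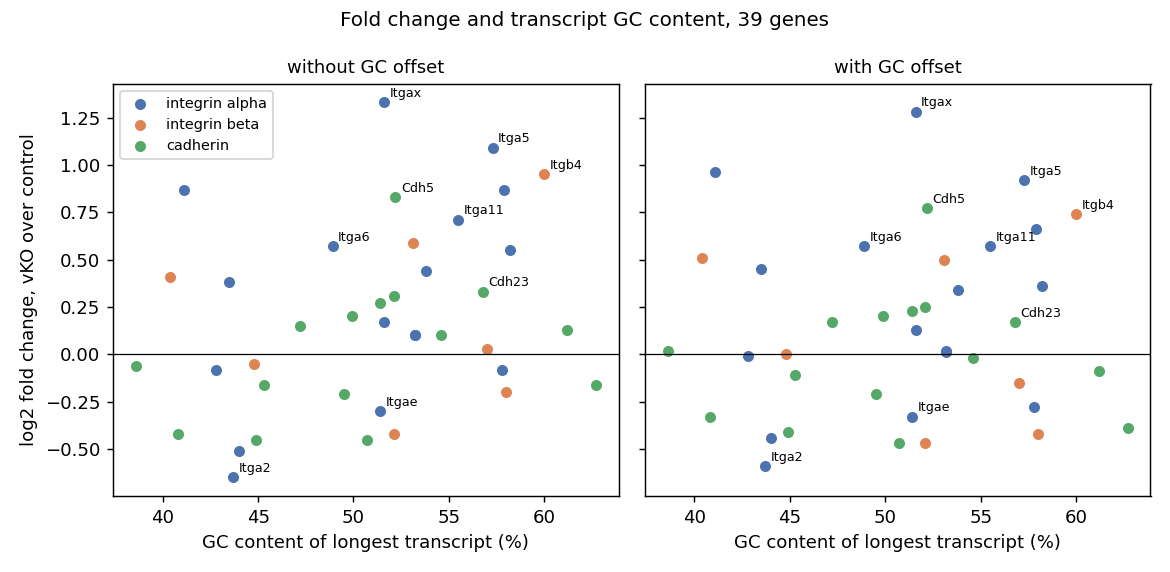
Log2 fold change (y axis, vKO-labelled libraries over control) against GC content of the longest transcript in percent (x axis) for the 39 genes, without (left) and with (right) the GC offset, coloured by family; the 9 genes with an unadjusted p under 0.05 without the offset are named. The Spearman correlation is 0.31 on the left and 0.10 on the right.

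The proteins that work with these receptors included genes that did pass the test. Of 19 tested genes for cytoplasmic partners of integrins, 2 were called, both higher, and 15 lay above 0 (78.9%), with a median log2 fold change of 0.19. Over all genes tested 0.393% were called and 50.3% lay above 0, and these lists were drawn up with earlier results of the data known, so their counts are a description. Zyx, the zyxin of mature focal adhesions, rose from 26.4 and 26.9 CPM in control to 49.6 and 46.5 in the vKO-labelled libraries (log2 fold change 0.85, SE 0.13, adjusted p 0.0212). Tns3, a tensin that links beta tails to actin, rose from 13.7 and 12.7 CPM to 23.9 and 22.1 (log2 fold change 0.80, SE 0.15, adjusted p 0.0492). Parvb, a parvin of the complex around integrin-linked kinase, had 7.10 and 5.67 CPM against 10.5 and 10.6, at an adjusted p of 0.139. Tln1, a gene of talin, which activates integrins, had 53.5 and 46.0 CPM against 64.3 and 54.7 (adjusted p 0.443). Tln2, the more abundant talin gene here, went the other way without overlap. It had 316 and 272 CPM against 251 and 259 (log2 fold change -0.20, SE 0.12, adjusted p 0.498). Integrin ligands gave 1 call among 7 genes tested. Vcam1, the ligand of alpha 4 beta 1, rose from 35.6 and 42.6 CPM to 70.1 and 64.5 (log2 fold change 0.78, SE 0.14, adjusted p 0.0326). Npnt, the nephronectin that binds alpha 8 beta 1, had 2.61 and 2.17 CPM in control versus 0.934 and 0.704 in the vKO-labelled libraries (log2 fold change -1.54, SE 0.38, adjusted p 0.107). Fn1, the fibronectin gene, had 13.3 and 14.4 CPM against 15.4 and 10.2, with overlapping groups. The median over the ligands was -0.11, with 3 of 7 above 0. The calls for Zyx, Tns3 and Vcam1 were lost when either vKO-labelled library was left out, at adjusted p values of 0.248, 0.462 and 0.373 without replicate 1 and 0.121, 0.203 and 0.151 without replicate 2. Tns3 was also lost with DESeq2 size factors (0.0508) and without robust estimation (0.0539).

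None of 10 catenin-complex genes was called by edgeR or DESeq2. An unadjusted p under 0.05 was found for 5 genes by edgeR, 4 of them higher, and for 4 by DESeq2. The 5 are 50% of the list, against 14.1% of all genes tested by edgeR. The lower gene was Ctnna3, with 108 and 97 CPM in control versus 85.9 and 82.5 in the vKO-labelled libraries (log2 fold change -0.28, SE 0.12, adjusted p 0.327). Arvcf, a relative of p120 catenin, had 8.68 and 6.24 CPM against 14 and 12.4 (log2 fold change 0.83, SE 0.20, adjusted p 0.105). Ctnna1, alpha catenin, had 36.2 and 39.6 CPM against 51.9 and 55 (log2 fold change 0.50, SE 0.13, adjusted p 0.134). Ctnnd2 had 7.74 and 7.64 CPM against 12.1 and 12.4 (adjusted p 0.128). The list's median was 0.14, with 7 of 10 above 0.

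**Figure D5:**
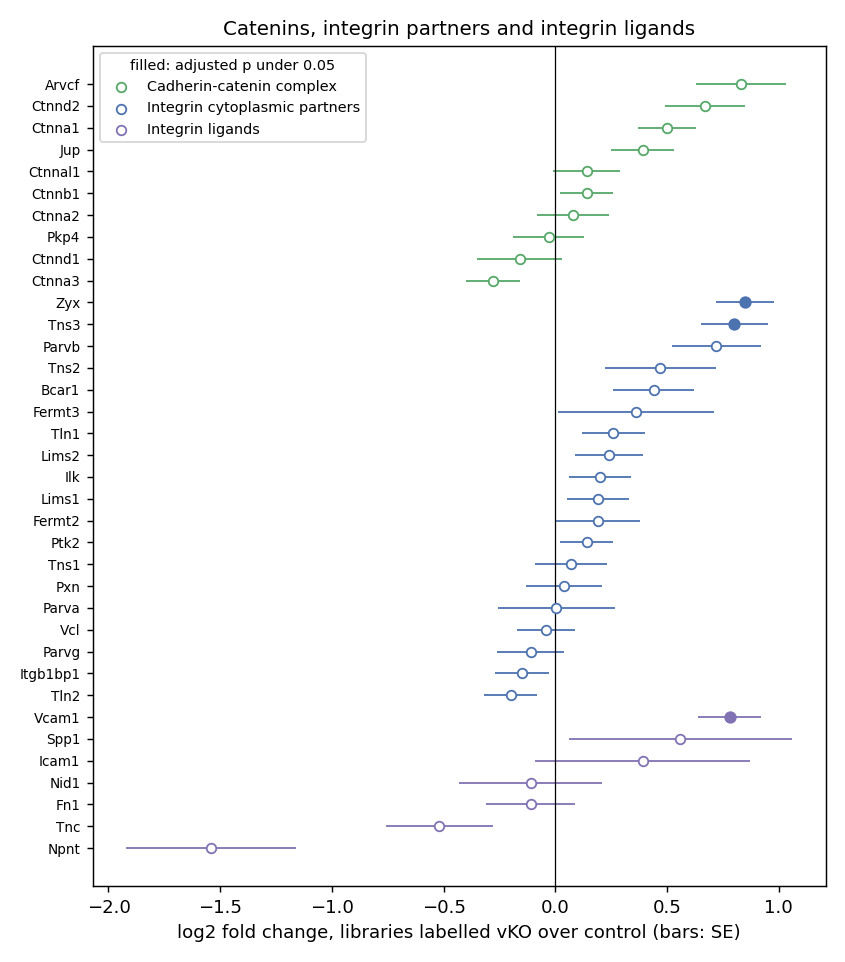
Log2 fold change with its standard error (x axis, vKO-labelled libraries over control) of the catenin-complex genes, integrin cytoplasmic partners and integrin ligands tested, coloured by list; filled points passed an adjusted p of 0.05. The 3 filled points are Zyx, Tns3 and Vcam1, between 0.78 and 0.85.

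Markers of the testis cell types were read beside these values. Sertoli genes summed to 430 and 432 CPM in control versus 622 and 583 in the vKO-labelled libraries, with 8 of 8 above 0. An unadjusted p under 0.05 was found for 6 of the 8 by edgeR, which called 1, while DESeq2 called 3 (Wt1, Amhr2 and Cldn11). For comparison with all marker lists here and above, edgeR gave 14.1% of all genes tested an unadjusted p under 0.05 and called 0.393%. DESeq2 called 1.32% of the genes to which it gave an adjusted p. Wt1, a transcription factor of Sertoli cells, rose from 31.3 and 32.8 CPM to 54.2 and 50.7 (adjusted p 0.0418). That call was lost without vKO replicate 1 (adjusted p 0.462), without vKO replicate 2 (0.212) and without robust estimation (0.0501). Elongating spermatid genes summed to 9716 and 7866 CPM in control versus 7478 and 7562 in the vKO-labelled libraries, with 1 of 7 above 0. Leydig genes summed to 292 and 355 against 458 and 345, spermatogonial genes to 96.1 and 95.3 against 117 and 105, spermatocyte genes to 1482 and 1541 against 1470 and 1364, round spermatid genes to 1420 and 1316 against 1331 and 1374, and peritubular myoid genes to 228 and 257 against 250 and 203. No gene of these other lists was called by edgeR or DESeq2, and unadjusted p values under 0.05 numbered 4 for elongating spermatids, 3 for Leydig cells, 2 for spermatogonia, 1 for spermatocytes and 0 for round spermatids and myoid cells by edgeR. The T cell list gave 0 calls and 0 unadjusted p under 0.05 by either tool. The Sertoli, spermatogonial, endothelial, and erythrocyte and platelet sums were higher in both vKO-labelled libraries than in both controls. The spermatocyte, elongating spermatid, and rete testis and duct epithelium sums were lower in both, and the other sums overlapped. Among the elongating spermatid sums control replicate 1 stood apart, at 9716. Of the 9 integrin and cadherin genes with an unadjusted p under 0.05 by edgeR, 7 were higher, and Itgae and Itga2 were lower. Among the partner and ligand genes named above, Zyx, Tns3, Vcam1, Arvcf and Ctnna1 were higher, and Tln2, Ctnna3 and Npnt were lower. Cdh2, of Sertoli and germ cell contacts, and Itgb1 overlapped between groups, with log2 fold changes of -0.21 and -0.05. Of the 39 integrin and cadherin genes tested, 24 lay above 0 and 15 below. The part of cell composition in these values was not tested.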

How the data were processed

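Gene counts of 4 mouse testis libraries, directional and depleted of ribosomal RNA per the labels' protocols, were used as the authors deposited them, whole numbers per Ensembl gene. The submitters' processing notes name HISAT2 2.1.0 and HTSeq 0.6.1p1, and the genome build, annotation and strand setting are not given in the sources used here. The deposited table also holds the authors' signal column (a mean normalized count), log2 fold changes with their errors, a Wald statistic (a score) and p-values, used only where the authors' table is named.

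Counts were scaled by TMM, filtered with filterByExpr (21132 genes kept) and tested with edgeR 4.0.16 (robust quasi-likelihood, Benjamini-Hochberg adjustment) in R 4.3.3 with limma 3.58.1. DESeq2 1.42.0 served as an alternative. The script was tested on simulated counts. Total counts per library ran from 24862518 to 29561182, and libraries of a group differed beyond sampling noise. Fold changes compare groups of 2 libraries, so SDs are imprecise. Gene models, lengths, GC content and positions came from GENCODE M21 (GRCm38), matched by identifier for 25261 of 25265 genes, and promoter windows from RefSeq. Near copies were sought with BLASTN at 95% identity over at least 100 nt. On the same strand Itga1, Itga10, Itgb2 and Itgb5 also matched genes with no row, over 451, 719, 228 and 343 nt. Reads shared with those genes (Gm49395, Gm42957, Gm14699 and Gm38317) may not be in the counts used.

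Genes with an unadjusted p under 0.05 and the 3 most abundant per family were described in full and the others by their values. Family members, gene lists and markers were chosen with earlier results of these data known. Alternatives were other scalings, filters and tests, a GC offset, a replicate block and leaving out each library.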

Additional observations from a re-analysis of the deposited data

How the results depend on the processing

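Calls over the whole table numbered 83 (71.1% higher). They numbered 218 with library totals (181 higher, 83%), 217 with the DESeq2 Wald test (137 higher, 63.1%), 143 with the GC offset (77 higher, 53.8%), 1017 with the replicate block (61.7% higher), 505 with the GC offset and replicate block (238 higher and 267 lower, 47.1% higher), and from 18 to 1540 when 1 library was left out (51.7% higher without control replicate 2 to 88.9% without vKO replicate 1). Integrin and cadherin genes called went from 0 to 2 with the replicate block (Itga6 and Itga11, adjusted p 0.0438 and 0.0126 in edgeR's quasi-likelihood test), back to 0 with the GC offset added to the block (0.0622 and 0.0707), and to between 0 and 3 without 1 library. Their median log2 fold change of 0.13 was 0.20 with library totals, 0.02 with the GC offset, 0.03 with the GC offset and replicate block, and from 0.11 to 0.18 without 1 library.

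The shared replicate numbers were not shown to pair libraries, and the labels do not say what a number marks. Over genes, the deviations of control replicate 1 and vKO replicate 1 from their group means correlated at 0.108. With 2 libraries a group, the replicate 2 libraries give the same value by construction and add no evidence.

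Of 270 values for 21 named genes, 241 kept direction and side of the threshold, 5 crossed it upward, 11 downward and 13 changed sign. With the GC offset, alone and with the block, Cdh24 was -0.09 and -0.09, Itgb5 -0.15 and -0.15, and Itgb1 0.0013 and 0.0062; Itgb1 was 0.0055 with library totals. Without 1 library Cdh24 reached -0.02, Itga1 0.01, Itgad -0.04, Itgb5 -0.01 and Itgb1 0.06 and 0.18, and the full ranges were -0.02 to 0.29, -0.18 to 0.01, -0.04 to 0.23, -0.01 to 0.06 and -0.26 to 0.18. The cause was not tested. In Itgax, Itga5 and Itgb4, with 17 to 68 counts a library, counting error limits the values.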

Other observations

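Several of these genes are neighbours on their chromosomes, and their values are set side by side here. Itgax and Itgad lie 3.72 kb apart on chromosome 7, with log2 fold changes of 1.33 and 0.10, and Itgam lies 11.1 kb before Itgax with at most 8 counts in a library. Itga2 and Itga1, both collagen receptor chains, lie 21 kb apart on chromosome 13, with log2 fold changes of -0.65 and -0.08. Cdh3 and Cdh1 lie 46.1 kb apart on chromosome 8, with log2 fold changes of 0.31 and -0.45. The differences between neighbours were not tested.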
